A study of Rattus norvegicus with 12 samples.

Results

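Il6r, Il1r1 and 8 secreted acute phase proteins were followed across 12 rat liver arrays. The rule took every probe set, a group of short probes aimed at one transcript, whose single symbol in the platform annotation was Il6r, Il1r1, Apcs, Crp, Serpina3n, A2m, Hpx, Hp, Cp or Orm1. This gave 14 probe sets for all 10 genes, of 31042 probe sets and 14217 genes with a single symbol in the table. Of the 14, 12 varied between arrays and 2, both of Il1r1, held the same value on all 12 arrays to within a standard deviation (SD) of 0.01 and counted as unmeasured, so every gene kept at least 1 measured probe set. The lowest SD among those kept was 0.041 (Hp), and the highest among those left out was 2.04e-09 (Il1r1 1370750_a_at).

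The livers came from male Sprague Dawley rats aged 9 weeks at the end of feeding. They ate a purified AIN-93G diet (control), the same diet with 0.1% wakame powder (low) or with 1% wakame powder (high) for 28 days, wakame being a brown seaweed used as food. Each diet was represented by 4 arrays, 1 per rat, numbered as in the labels. The study fed 6 rats per diet in cages of 3, and the cage of each rat is not in the labels, so a cage effect was not tested.

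The acute phase response is the change in plasma proteins that the liver makes after infection or injury. Interleukin-6 binds its receptor Il6r, pairs with the shared chain gp130 (Il6st) and activates STAT3, while interleukin-1 binds Il1r1 and acts through NF-kappaB and C/EBP factors. Hepatocytes then raise positive acute phase proteins and lower negative ones such as albumin. In the rat, A2m is strongly inducible from a low resting level, whereas Crp is made continuously.

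Promoter sequences are shown for Crp and Cp, a pair with r = 0.67 across rats that did not pass adjustment over 45 pairs (adjusted permutation p = 0.393), for Apcs and Serpina3n, the secreted members with the lowest unadjusted p, and for Il6r, the member with the largest difference. Each is the 250 bases before the annotated start, 5′ to 3′ along the gene, from RefSeq (GRCr8), and capitals mark motif matches found on either strand.
Crp (GRCr8 chr13:87693812-87694061, plus strand): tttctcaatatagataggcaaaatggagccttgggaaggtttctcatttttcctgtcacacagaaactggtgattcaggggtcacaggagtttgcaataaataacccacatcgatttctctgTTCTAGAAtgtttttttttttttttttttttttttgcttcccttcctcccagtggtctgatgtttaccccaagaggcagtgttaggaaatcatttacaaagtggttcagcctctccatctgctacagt
Cp (GRCr8 chr2:104368420-104368669, plus strand): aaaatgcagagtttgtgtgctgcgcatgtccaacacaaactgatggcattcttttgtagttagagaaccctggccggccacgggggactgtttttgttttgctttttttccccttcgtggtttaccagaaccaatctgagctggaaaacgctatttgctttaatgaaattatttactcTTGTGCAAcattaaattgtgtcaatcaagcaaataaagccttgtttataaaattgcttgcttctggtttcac
Apcs (GRCr8 chr13:87906509-87906758, minus strand): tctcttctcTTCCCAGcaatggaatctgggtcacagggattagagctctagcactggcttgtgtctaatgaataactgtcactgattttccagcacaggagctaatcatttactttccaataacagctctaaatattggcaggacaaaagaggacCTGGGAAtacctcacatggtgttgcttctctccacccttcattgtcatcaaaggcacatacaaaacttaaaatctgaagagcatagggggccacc
Serpina3n (GRCr8 chr6:129088142-129088391, plus strand): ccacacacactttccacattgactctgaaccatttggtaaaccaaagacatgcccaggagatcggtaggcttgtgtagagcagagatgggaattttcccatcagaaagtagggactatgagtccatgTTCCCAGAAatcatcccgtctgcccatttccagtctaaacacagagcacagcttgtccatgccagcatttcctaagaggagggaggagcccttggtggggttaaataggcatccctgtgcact
Il6r (GRCr8 chr2:177645210-177645459, minus strand): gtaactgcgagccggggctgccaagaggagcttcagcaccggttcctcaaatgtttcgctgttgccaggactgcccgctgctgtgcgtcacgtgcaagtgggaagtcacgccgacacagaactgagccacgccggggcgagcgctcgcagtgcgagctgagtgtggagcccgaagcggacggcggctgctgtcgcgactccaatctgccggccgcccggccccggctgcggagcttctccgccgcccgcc
The motifs searched were TTCNNNGAA and TTCNNGAA, STAT palindromes with a spacer of 3 or 2 bases, CTGGGAA, a type 2 interleukin-6 response element, TTGCNNAA, a C/EBP core, and the NF-kappaB decamer. Crp held TTCTAGAA from 128 to 121 bases before the start. Serpina3n held TTCCCAGAA from 123 to 115, and the type 2 element on the other strand overlaps it from 123 to 117. Apcs held the type 2 element at 241 to 235, as its reverse complement, and at 95 to 89, as CTGGGAA. Cp held a C/EBP core, as its reverse complement TTGTGCAA, from 72 to 65, and the Il6r window held none of these letters. Of the 8 members in the promoter table, 1 held TTCNNNGAA, 1 TTCNNGAA, 2 CTGGGAA, 3 TTGCNNAA and 1 the decamer. The shares over all 33469 promoter windows of this length were 7.67%, 7.48%, 9.56%, 9.22% and 6.33%. Hp and A2m were not among the entries matched. A match describes the letters and is not evidence of binding.

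All values are deposited log2 values. Their log2 scale was inferred from their range of 3.15 to 14.6, the authors' background correction and normalization were not given in the sources used here, and no background signal was available for any probe set. The median was 6.59 on every array (to 2 decimals), arrays of one diet correlated at 0.911 to 0.961 over the 3240 varying probe sets, and no 2 arrays were identical. Differences were tested with limma over these 3240 probe sets, with Benjamini-Hochberg adjustment over all of them and a threshold of 0.05. Errors are SD over 4 rats for a level and standard error (SE) for a difference. The Gapdh 3-prime minus 5-prime difference, a sign of RNA integrity, averaged 1.05 ± 0.01 for control rats, 1.08 ± 0.10 for low rats and 1.21 ± 0.16 for high rats (SD, n = 4), and its part in the results was not tested beyond the fits that include it. Of 16 hepatocyte markers, 15 had a probe set and 9 varied. The mean level of these 9 ran from 12.21 to 12.48 in control, 12.42 to 12.69 in low and 12.12 to 12.50 in high. Of their 10 probe sets 0 passed in any comparison (limma), where 0% to 1.67% of all varying probe sets passed. At an unadjusted p under 0.05, 2 were higher in low than in control (11.5% of all differed). In the same way 1 was lower in high than in low (6.76% of all differed). The part of these markers in the values of the secreted members was not tested. The flat albumin probe sets were listed at 14.61 and 14.38. In bulk liver, fewer cells of a type and less RNA per cell cannot be told apart.

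None of the 12 member probe sets passed the test in any comparison of diets. The count was 0 of 12 for high against control, where 1.67% of all varying probe sets passed, 0 of 12 for low against control, where 0.0617% passed, and 0 of 12 for high against low, where 0% passed. An F-test for any difference among the 3 diets called 0 of 12, against 0.185% of all. At an unadjusted p under 0.05 with limma, 3 of 12 differed for high against control (18.5% of all varying probe sets), namely Il6r, Il1r1 and Apcs. For low against control there were also 3 of 12 (11.5% of all), namely Il6r, Apcs and Serpina3n, and for high against low 1 of 12 (6.76% of all), which was Il1r1. In high against control 7 of 12 lay higher (44.9% of all), with a median difference of 0.04 log2 beside −0.02 over all varying probe sets. Against control the low diet had 6 of 12 higher (44.1% of all), with a median of 0.05 beside −0.02. Between the wakame diets 5 of 12 lay higher in high (49% of all), with a median of −0.04 beside −0.0038. The 2 comparisons with control share the control rats.

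**Figure D1:**
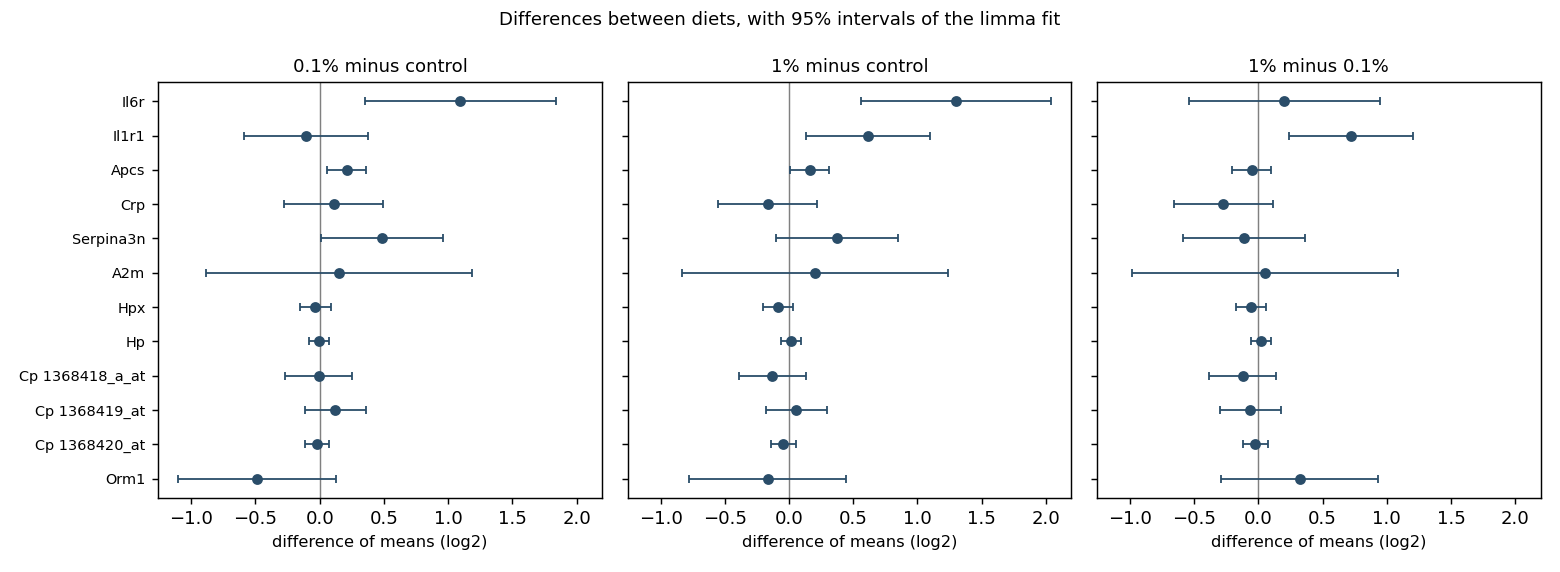
Differences of diet means in log2 (horizontal axes) for the 12 varying probe sets (rows), as low minus control, high minus control and high minus low. Points are estimates and bars are 95% intervals of the limma fit, unadjusted for the number of probe sets. Il6r lies farthest to the right in both comparisons with control, at 1.10 and 1.30, while Hp stays within 0.02 of 0 in the first 2 panels.

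Il6r encodes the chain that binds interleukin-6. Its single probe set read 7.54, 8.43, 8.38 and 8.90 in control 1 to 4. In the low group it read 9.39, 8.77, 9.58 and 9.89. In the high group it read 9.76, 9.44, 9.05 and 10.19. All 4 high rats lay above every control and 3 of 4 low rats did, while low and high overlapped.

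Control rats averaged 8.31 ± 0.57, low rats 9.41 ± 0.47 and high rats 9.61 ± 0.48 (SD, n = 4). High minus control was 1.30 ± 0.34 log2, 2.46-fold with a 95% interval of 1.47 to 4.11 (limma, adjusted p = 0.0812). Low minus control was 1.10 ± 0.34, 2.14-fold with an interval of 1.28 to 3.57 (limma, adjusted p = 0.231). High minus low was 0.20 ± 0.34 (limma, adjusted p = 0.959), with an interval of −0.54 to 0.94 log2. Neither comparison with control passed. The exact permutation test of high against control gave p = 0.0286, the smallest that 4 against 4 allows, and 0.411 after adjustment over the 36 member tests. Il6r was the only member whose high and control rats did not overlap, 1 of 12 probe sets, beside 11.3% of all varying probe sets. No member was free of overlap between low and control (5.86% of all) or between high and low (3.77% of all). With the Gapdh 3-prime minus 5-prime difference in the fit, high minus control was 1.50 (limma, adjusted p = 0.216).

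Il1r1 encodes the signalling receptor of interleukin-1. The varying probe set (1392946_at) read 8.70, 8.88, 9.35 and 8.77 in control 1 to 4. It read 8.53, 8.59, 8.88 and 9.28 in the low rats. It read 10.01, 9.57, 9.40 and 9.19 in the high rats. The lowest high rat lay below control 3, so the diets overlapped, with 3 of 4 high rats above all controls and 3 of 4 above all low rats.

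The Il1r1 means were 8.93 ± 0.29, 8.82 ± 0.34 and 9.54 ± 0.35 (SD, n = 4) in control, low and high. The difference of high from control was 0.62 ± 0.22, 1.53-fold with an interval of 1.10 to 2.14 (limma, adjusted p = 0.180). High minus low was 0.72 ± 0.22 (limma, adjusted p = 0.547) and low minus control −0.10 ± 0.22 (limma, adjusted p = 0.907). The other Il1r1 probe sets were flat at 6.02 and 6.27 and gave no second reading. Il1r1 is also made by cells other than hepatocytes. Of 14 stellate cell and fibroblast markers 5 varied. In high 5 lay higher than in control (44.9% of all varying probe sets), and in low 3 (44.1% of all). Their mean level ran from 8.21 to 8.58 in control, 8.03 to 8.63 in low and 8.24 to 8.81 in high. Of 16 Kupffer cell markers 10 varied. Of these 7 lay higher in high than in control (44.9% of all) and 10 in low (44.1% of all). Their mean level was 8.80 to 9.43 in control, 8.85 to 9.39 in low and 8.79 to 9.36 in high. Of 13 endothelial cell markers 2 varied, each higher in high and in low than in control (44.9% and 44.1% of all). Of 15 lymphocyte markers 2 varied, both lower than control in high and in low. The 1 varying cholangiocyte marker also lay lower in both diets. The 1 varying neutrophil and mast cell marker lay higher in high and lower in low. None of these markers passed in any comparison (limma), where 0% to 1.67% of all varying probe sets passed. The part of these cells in the Il1r1 values was not tested.

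The shared signalling chain gp130, Il6st, was the gene nearest to the threshold in the interleukin-6 list. Its first varying probe set (1370957_at) read 9.54, 9.84, 10.21 and 9.89 in control. In low it read 9.78, 10.13, 10.12 and 10.22, and in high 10.64, 10.69, 10.25 and 10.41. On this probe set all high rats lay above all low and all control rats. Over all varying probe sets, high did not overlap with low in 3.77% and with control in 11.3%. The high group exceeded control by 0.63 ± 0.15 on it, and 0.47 ± 0.12 and 0.63 ± 0.15 on the other varying ones (limma, adjusted p 0.0703, 0.0794 and 0.0609). High and control did not overlap on any of the 3, which are readings of 1 gene on the same arrays, and the fourth Il6st probe set was flat. On 1373140_at the lowest low rat (8.71) also lay above the highest control (8.67), as low and control did not overlap in 5.86% of all varying probe sets. Low minus control was 0.20, 0.16 and 0.21 (limma, adjusted p 0.690, 0.682 and 0.656). None of these passed.

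**Figure D2:**
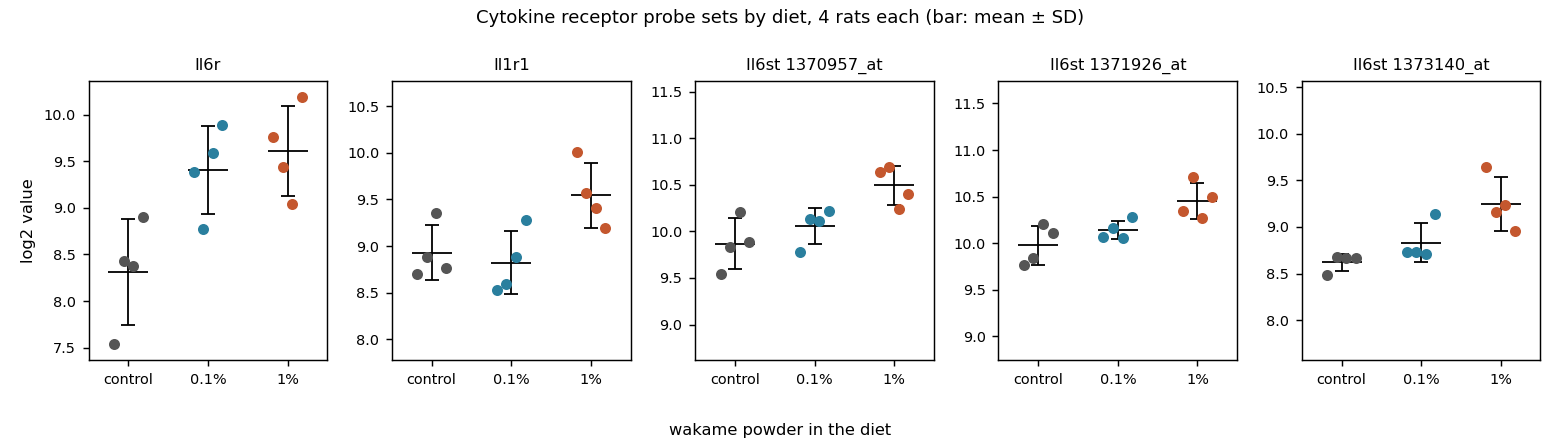
Log2 values (vertical axes, each spanning 3 log2) of Il6r, Il1r1 and the 3 varying Il6st probe sets by diet, 1 point per rat, with mean ± SD bars. The high rats sit above all controls for Il6r and for each Il6st probe set, and Il1r1 is highest in high 1, at 10.01.

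The pentraxins Apcs and Crp are ring-shaped plasma proteins that bind microbial and damaged surfaces. Apcs, serum amyloid P component, read 12.29, 12.10, 12.24 and 12.32 in control. It read 12.28, 12.51, 12.57 and 12.44 in low, and 12.42, 12.32, 12.44 and 12.42 in high. In each wakame group 3 of 4 rats lay above all controls, and the groups overlapped.

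The Apcs differences were small in size, and neither passed. Low minus control was 0.21 ± 0.07 log2, 1.16-fold (limma, adjusted p = 0.242), and high minus control 0.16 ± 0.07, 1.12-fold (limma, adjusted p = 0.243), or 0.25 with the Gapdh difference in the fit. High minus low was −0.05 ± 0.07, with an interval of −0.20 to 0.10. Crp, C-reactive protein, had means of 11.90 ± 0.29 (control), 12.01 ± 0.28 (low) and 11.74 ± 0.22 (high; SD, n = 4). It ran from 11.65 to 12.19, from 11.68 to 12.35 and from 11.53 to 12.04, so all diets overlapped. Its high minus control difference was −0.17 ± 0.17, 0.892-fold with an interval of 0.683 to 1.17 (limma, adjusted p = 0.669). That value ran from −0.27 without high 3 to −0.07 without control 4, and it was 0.00052 with the Gapdh difference in the fit.

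Serpina3n and A2m inhibit proteases released during inflammation. Serpina3n, of the antichymotrypsin clade, read 11.53, 12.09, 12.16 and 11.95 in control. It read 12.51, 12.48, 12.64 and 12.03 in low, and 12.89, 12.26, 12.12 and 11.95 in high. Of the low rats 3, and of the high rats 2, lay above all controls.

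Serpina3n averaged 11.93 ± 0.28, 12.41 ± 0.26 and 12.30 ± 0.41 (SD, n = 4) in control, low and high. Low minus control was 0.48 ± 0.21, 1.40-fold (limma, adjusted p = 0.424), and high minus control 0.37 ± 0.21, 1.30-fold (limma, adjusted p = 0.383). The difference of high from control was 0.18 without high 1 and 0.24 without control 1. A2m, alpha-2-macroglobulin, read 6.63, 6.85, 7.13 and 7.57 in control. It read 6.38, 6.85, 8.04 and 7.50 in low, and 7.08, 6.87, 6.47 and 8.56 in high. The A2m values spread most of the secreted members, over 2.18 log2, and low 3 and high 4 were the highest.

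The A2m means were 7.04 ± 0.40 (control), 7.19 ± 0.73 (low) and 7.25 ± 0.91 (high; SD, n = 4). High minus control was 0.20 ± 0.47, with an interval of 0.561-fold to 2.36-fold (limma, adjusted p = 0.890), and it was −0.24 without high 4 and 0.92 with the Gapdh difference in the fit (limma, adjusted p = 0.478). Low minus control was 0.15 ± 0.47 (limma, adjusted p = 0.938), and −0.13 without low 3. The interval for high against control includes a rise of 2-fold and leaves out a fall of that size.

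Orm1, orosomucoid, is a lipid and drug binding lipocalin of plasma. It read 12.34, 12.51, 12.00 and 11.94 in control. It read 11.36, 11.24, 12.09 and 12.16 in low, and 12.68, 11.62, 11.74 and 12.10 in high. Low 1 and low 2 were the lowest of the 12 rats and high 1 the highest. Low minus control was −0.49 ± 0.28, 0.714-fold with an interval of 0.467 to 1.09 (limma, adjusted p = 0.563). For high against control it was −0.17 ± 0.28 (limma, adjusted p = 0.819). That value ran from −0.38 without high 1 to −0.03 without high 2, and it was 0.07 with the Gapdh difference in the fit.

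The carriers Hp, Hpx and Cp bind free hemoglobin, heme and copper. Hp, haptoglobin, lay between 13.47 and 13.59 in all 12 rats. It was brighter than 99.9% of all probe sets, and the scale of differences at that brightness was not tested. Its means were 13.52 ± 0.05, 13.52 ± 0.02 and 13.54 ± 0.05 (SD, n = 4), and the interval of high minus control was 0.959-fold to 1.07-fold (limma, adjusted p = 0.865). Hpx, hemopexin, ran from 13.20 (high 4) to 13.49 (control 4). Its means were 13.44 ± 0.04, 13.41 ± 0.05 and 13.35 ± 0.11, and 3 of 4 high rats lay below all controls. The high group differed from control by −0.09 ± 0.05, 0.940-fold with an interval of 0.867 to 1.02 (limma, adjusted p = 0.401), and −0.04 without high 4.

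Ceruloplasmin, Cp, the copper ferroxidase of plasma, had 3 varying probe sets. Their high minus control differences were −0.13 ± 0.12 (1368418_a_at), 0.06 ± 0.11 (1368419_at) and −0.04 ± 0.04 (1368420_at), of mixed sign, with limma adjusted p of 0.591, 0.849 and 0.623. With 1 array left out they ran from −0.22 to −0.04, from −0.03 to 0.13 and from −0.07 to −0.02. Their low minus control differences were −0.01, 0.12 and −0.02. Across the 12 arrays 1368418_a_at and 1368420_at followed each other at Pearson r = 0.96 and Spearman rho = 0.93, and 1368419_at followed them at r = 0.73 and 0.66 (rho = 0.83 and 0.80). These readings share their transcript and arrays.

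**Figure D3:**
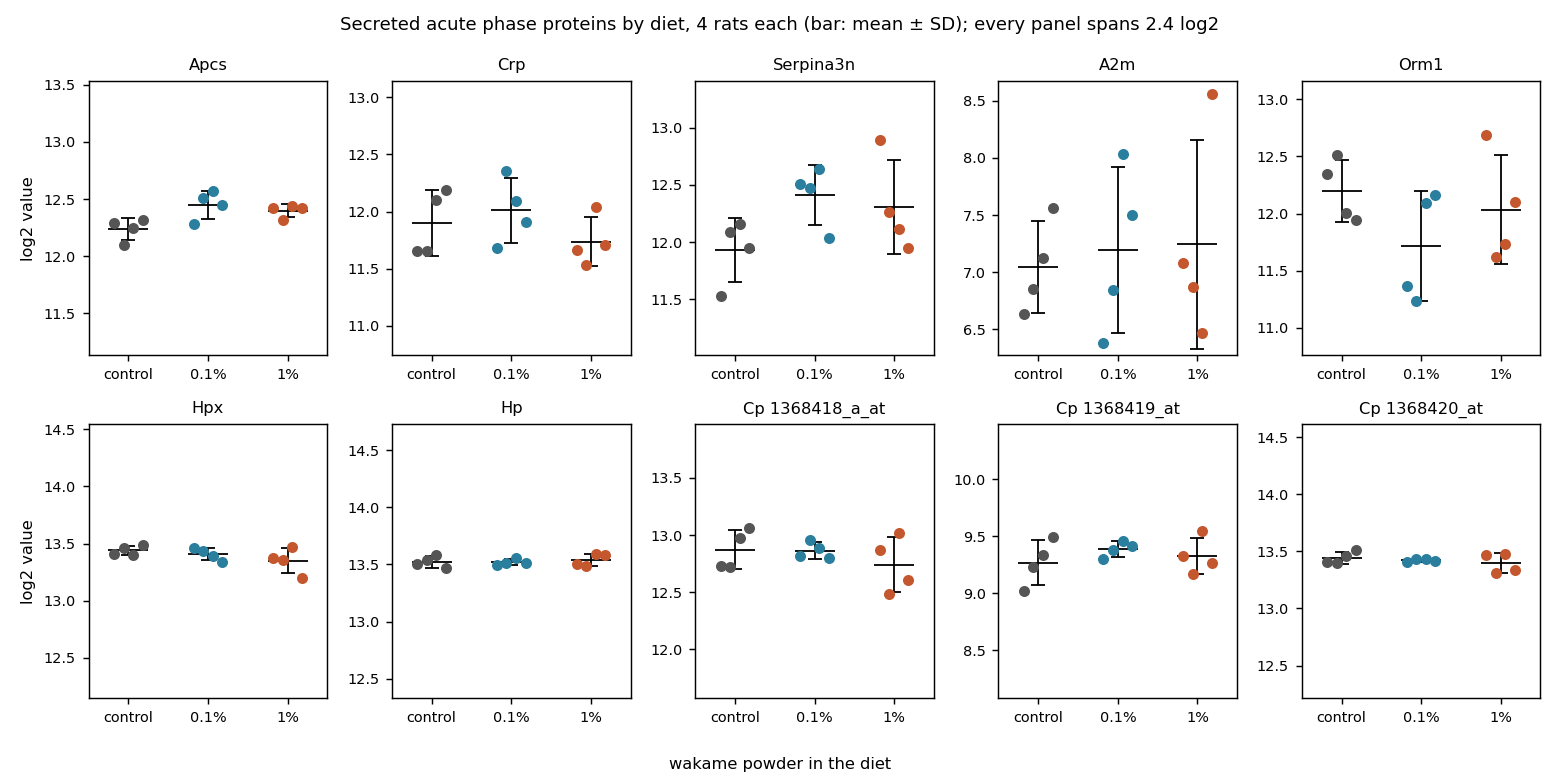
Log2 values of the 10 probe sets of secreted members by diet, 1 point per rat with mean ± SD bars, on vertical axes that all span 2.4 log2. Hp keeps within 13.47 to 13.59, whereas A2m runs from 6.38 to 8.56 with its highest values in low 3 and high 4.

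The members did not move as one block between rats. Over the 45 pairs of member genes, taken at the brightest varying probe set, none passed adjustment (Pearson, permutation test with 100000 resamples, adjusted p of at least 0.393), while unadjusted values under 0.05 occurred in 3 pairs. Crp and Cp varied together at r = 0.67 (permutation p = 0.0175, adjusted 0.393) and rho = 0.65 (permutation p = 0.0260, adjusted 0.585). Their r was 0.68 with diet means removed and 0.67 without control 4 and low 2. A2m and Hpx ran opposite ways at r = −0.69 (permutation p = 0.0158, adjusted 0.393) and rho = −0.52 (permutation p = 0.0884, adjusted 0.806). Without low 3 and high 4, the 2 arrays farthest from the A2m median, r was −0.31. High 4 had the highest A2m (8.56) and the lowest Hpx (13.20), whereas Hpx in low 3 was 13.39, beside a mean of 13.40. Hpx and Cp had r = 0.62 (permutation p = 0.0320, adjusted 0.481), and 0.30 without control 4 and high 4. Il6r and Hpx had r = −0.57 (permutation p = 0.0516) and rho = −0.66 (permutation p = 0.0241, adjusted 0.585). Il6r and A2m had r = 0.55 (permutation p = 0.0653), which was 0.73 with diet means removed and 0.27 without control 1 and high 4. Il6r and Il1r1 had r = 0.42 (permutation p = 0.178) and rho = 0.41 (permutation p = 0.193).

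Among 2300 other genes with a varying probe set, those whose values followed Il6r most closely over the 12 arrays were Stag1 (r = 0.93), Herpud1 (0.93) and Edem1 (0.92). With diet means removed these were 0.91, 0.87 and 0.89. Nearest to Il1r1 were Mark3 (0.90), Phtf2 (0.88) and Pkp4 (0.87), at 0.84, 0.72 and 0.76 with diet means removed. For Crp they were C4bpb (0.83), Igf2bp3 (0.82) and Igf1 (0.82). For Hpx they were Tspan7 (0.95), Mmp14 (0.91) and Tmem135 (0.81), and for A2m RT1-Bb (0.90), Yipf5 (0.89) and Sat1 (0.83). Apcs was nearest to Fam107b (0.87), Serpina3n to Glud1 (0.82), Orm1 to Ddx6 (0.90), Hp to Hgd (0.89) and Cp to Arpc5 (0.88). These correlations are descriptions of 12 arrays with no test.

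Most genes of interleukin-6 family signalling could not be followed. Of 28 listed genes 25 had a probe set and 5 varied, and the STAT3 gene Stat3, its feedback inhibitor Socs3 and the acute phase factor Cebpd were flat. Of the 10 varying probe sets of this list, 0 passed in any comparison (limma), where 0% to 1.67% of all passed. At an unadjusted p under 0.05 there were 3 for high against control (18.5% of all varying probe sets), all of Il6st. There were 3 between the wakame diets (6.76% of all), again all of Il6st, and 0 between low and control (11.5% of all). In the high group 2 of 5 genes lay higher than in control (44.9% of all), with a median of −0.49 log2 beside −0.02 over all varying probe sets. Cebpb, a C/EBP factor of acute phase genes, was at −0.66 ± 0.32 and Cish, a cytokine-induced inhibitor, at −0.75 ± 0.63 (limma, adjusted p 0.295 and 0.568). The 4 varying Cebpa probe sets lay between −0.97 and −0.29.

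In the interleukin-1 and NF-kappaB list 32 of 36 genes had a probe set and 8 varied. Of these 0 passed in any comparison (limma), where 0% to 1.67% of all varying probe sets passed. At an unadjusted p under 0.05 there was 1 of 8 for high against control (18.5% of all varying probe sets). For low against control there was also 1 of 8 (11.5% of all). The medians were −0.06 for high and 0.03 for low against control. The co-receptor Il1rap was at 0.10 ± 0.06 for high against control (limma, adjusted p = 0.389). The adaptor Traf6 was at −0.72 ± 0.31 on 1 probe set (limma, adjusted p = 0.245), with its other 3 flat. Nfkbiz, an inducible NF-kappaB cofactor, was at 0.40 ± 0.17 for low against control (limma, adjusted p = 0.412). Il1a, the cytokine itself, was at −0.40 ± 0.37 for high against control (limma, adjusted p = 0.604).

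None of the other positive acute phase proteins passed. Of 34 listed genes 26 had a probe set and 16 varied. Of these 14 lay higher in high than in control (44.9% of all varying probe sets), with a median of 0.12 log2 beside −0.02 over all. For high against control 0 of their 19 probe sets passed (limma, 1.67% of all). At an unadjusted p under 0.05 there were 3 (18.5% of all). The metallothioneins Mt1 and Mt2A, which bind zinc and copper, were at 0.47 ± 0.11 and 3.67 ± 1.01 (limma, adjusted p 0.0622 and 0.0950). Mt2A ran from 5.43 to 9.97 in control and from 9.72 to 12.09 in high, so these diets overlapped. On Mt1 they did not overlap, as in 11.3% of all varying probe sets. The plasmin inhibitor Serpinf2 was at 0.29 ± 0.12 and the complement inhibitor Serping1 at 0.20 ± 0.12 (limma, adjusted p 0.238 and 0.393). The fibrinogen chain Fga was at 0.01 ± 0.04 and −0.07 ± 0.17, and the chains Fgb and Fgg were flat.

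Negative acute phase proteins gave no calls either. Of 22 genes 21 had a probe set and 16 varied. In high 11 lay higher than in control (44.9% of all varying probe sets) and 5 lower, with a median of 0.06 log2. Of their 19 probe sets 0 passed (limma, 1.67% of all), and 3 had an unadjusted p under 0.05 (18.5% of all). The growth factor Igf1 was at −0.18 ± 0.07 on the probe set with the lowest p, and its plasma partner Igfals at −0.20 ± 0.09 (limma, adjusted p 0.223 and 0.257). Pon3, a lactonase, was at 0.16 ± 0.07 (limma, adjusted p = 0.243). Gc, the vitamin D carrier, was at −0.01 ± 0.02 on its brighter and 0.87 ± 0.55 on its dimmer probe set. Alb and Ttr, the albumin and transthyretin genes, were flat.

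Among 22 genes for receptors and handling of the carrier proteins, 20 had a probe set and 8 varied. Of their 9 probe sets 0 passed in any comparison (limma), where 0% to 1.67% of all varying probe sets passed. For high against control 2 of 9 probe sets had an unadjusted p under 0.05 (18.5% of all varying probe sets), both of Tfrc. The transferrin receptor Tfrc was at −0.79 ± 0.19 and −0.90 ± 0.33 for high against control on its 2 varying probe sets (limma, adjusted p 0.0659 and 0.191). Lrp1, which takes up hemopexin and macroglobulin complexes, was at 0.17 ± 0.18 and Hmox1, which breaks down heme, at −0.01 ± 0.04 (limma, adjusted p 0.687 and 0.965). The haptoglobin receptor Cd163 and the copper transporter Atp7b were flat.

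Hepatocyte transcription factors were the 1 list with calls. The lists were written with earlier results of these data known, so a share of calls here is no test of a list. Of 24 genes 22 had a probe set and 11 varied, and of their 16 probe sets 2 rose and 2 fell for high against control, where 0.864% of all varying probe sets rose and 0.802% fell. Bcl6, a transcriptional repressor, rose by 5.21 ± 0.77 log2 and both probe sets of Onecut1, the factor HNF6, fell by 3.17 ± 0.54 and fell by 2.10 ± 0.35 (limma, adjusted p 0.0152, 0.0268 and 0.0262). Nr5a2, the nuclear receptor LRH-1, rose by 0.60 ± 0.13 on 1 probe set, from 8.90 ± 0.14 to 9.50 ± 0.15 (SD, n = 4; limma, adjusted p = 0.0486), while its other varying one was at 0.07 ± 0.07 (limma, adjusted p = 0.662). In 12 fits that each left out 1 array, Nr5a2 passed in 2 (without low 1 and without low 4), and its adjusted p ran from 0.0485 to 0.129. Bcl6 passed in 10 of 12 and each Onecut1 probe set in 7 of 12. The glucocorticoid receptor Nr3c1 was at −0.27 ± 0.12 for high against control and −0.44 ± 0.12 for high against low (limma, adjusted p 0.270 and 0.514). Its high and low rats did not overlap, as in 3.77% of all varying probe sets. Over the 6 lists the count for high against control was 4 of 76 probe sets (1.67% of all varying ones). At an unadjusted p under 0.05 there were 17 (18.5% of all). The count of 4 became 0 without control 4 or high 2, and 1 without control 1, control 2 or high 4. With the Gapdh difference in the fit it was 0. Low against control gave 0 of 76, with 6 at an unadjusted p under 0.05 (11.5% of all). The wakame diets against each other gave 0 of 76, with 12 at an unadjusted p under 0.05 (6.76% of all).

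**Figure D4:**
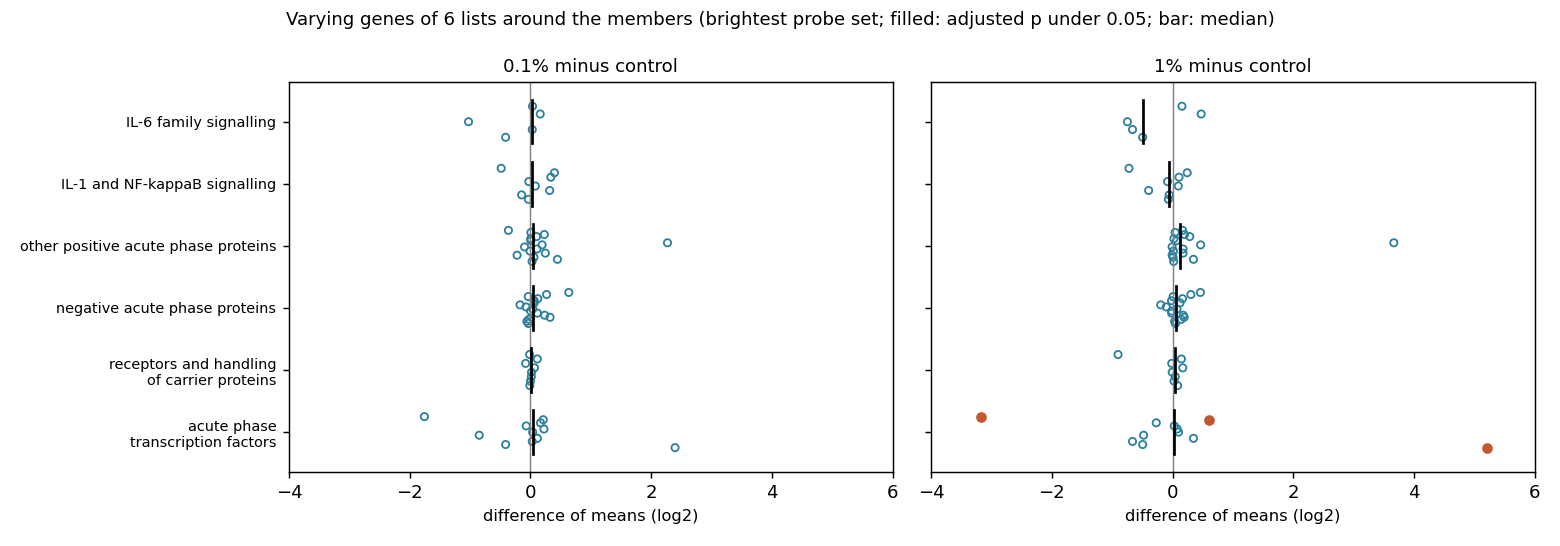
Differences from control in log2 (horizontal axes) for the varying genes of the 6 lists (rows), for low on the left and high on the right. Each point is the brightest varying probe set of a gene, filled points passed at an adjusted p under 0.05 and vertical bars are list medians. The filled points are all on the right, in the transcription factor list, and the rightmost is Bcl6 at 5.21.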

How the data were processed

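Per the labels' protocols, 100 ng of liver RNA per rat was turned into biotinylated cRNA with a 3-prime in vitro transcription kit for Affymetrix arrays. The authors deposited log2 values per probe set for 12 arrays (the scale was inferred from the values). The submitters' processing notes name R 2.7.2. Background correction, normalization and summarisation were not given in the sources used here. Gene names come from the platform annotation, in which 20832 probe sets have 1 symbol, 436 several and 9831 none.

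The 57 manufacturer controls were left out. Of the other 31042 probe sets, 27802 with an SD of at most 0.01 were treated as unmeasured, since a flat value is not evidence of an unchanged RNA. limma 3.58.1 in R 4.3.3 fitted a mean per diet to the remaining 3240 on all 12 arrays, with a variance trend. The fit was also run on simulated data of independent normal values, which held no Gapdh gradient and no cage structure. Exact permutation tests, correlations, motif searches and figures used Python 3.11.15, scipy 1.17.1 and matplotlib 3.10.9.

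Members, lists and the restriction to varying probe sets were chosen with earlier results of these data known. Genes named outside the members are up to 4 per list with the lowest p in any comparison, 15 fixed by name and, by correlation, the 3 nearest to each member, of which some are printed. The number of arrays limits the precision. Alternatives covered the SD limit, dim probe sets, variance prior, array normalization, array weights, diets in the fit, a replicate block, the Gapdh difference, 1 probe set per gene and each array left out.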

Additional observations from a re-analysis of the deposited data

How the results depend on the processing

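The count of members passing limma at an adjusted p under 0.05 was 0 in each of the 3 comparisons and in the F-test under every alternative run (the F-test could not be run on 2 diets only). Il6r for high against control had an adjusted p of 0.0730 to 0.352 over the 13 other settings and 0.0769 to 0.178 with an array left out, with differences of 1.04 to 1.50. The 4 called probe sets of the lists became 0 with flat probe sets included, 1 with the replicate block, 0 with the Gapdh difference and 2 with 1 probe set per gene, and 0 to 5 with an array left out. The replicate numbers share no stated source. Same-numbered rats correlated at −0.12 to 0.092 in their deviations from diet means, and 1 of 12 arrays matched its own number best. With the replicate block 0 members passed in any comparison, and over all varying probe sets the count for high against control went from 54 to 12.

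Of 882 recomputed member differences, 32 changed sign and 0 passed. With the Gapdh difference in the fit, Crp and Orm1 for high against control were at 0.00052 and 0.066, Apcs and Cp 1368419_at for high against low at 0.018 and 0.0080, and Cp 1368418_a_at and Hp for low against control at 0.0072 and 0.0038. For low against control, quantile normalization gave Cp 1368418_a_at 0.0074 and Hp 0.027, and median centring gave them 0.017 and 0.021, and Cp 1368420_at 0.0032. With an array left out, high minus control ran from −0.24 to 0.46 for A2m, −0.027 to 0.13 for Cp 1368419_at and −0.0021 to 0.038 for Hp. Low minus control ran from −0.13 to 0.42 for A2m, −0.057 to 0.054 for Cp 1368418_a_at, −0.036 to 0.0020 for Cp 1368420_at, −0.0042 to 0.22 for Crp, −0.023 to 0.017 for Hp and −0.26 to 0.037 for Il1r1. High minus low ran from −0.39 to 0.33 for A2m, −0.050 to 0.0043 for Cp 1368420_at, −0.011 to 0.39 for Il6r and −0.31 to 0.0077 for Serpina3n. Some of these fits had fewer samples or probe sets, and the cause of these moves was not tested. Without background signals, how close any value lies to background is unknown.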

Other observations

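Single rats differed in which members were high. High 1 had the highest Il1r1 (10.01), Serpina3n (12.89) and Orm1 (12.68) of the 12 rats. High 4 had the highest Il6r (10.19) and A2m (8.56) and the lowest Hpx (13.20). Control 1 had the lowest Il6r (7.54), Serpina3n (11.53) and Cp on 1368419_at (9.02). Low 2 had the highest Crp (12.35) and the lowest Orm1 (11.24). Over the 36 groups of 4 values, 3 diets for each of 12 probe sets, no rat's gap to its nearest neighbour exceeded the 95% critical value of Dixon's test, which chance exceeds in about 1 group in 20.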
